A study of Mus musculus with 12 samples.

Results

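Testis RNA of mice injected with either of 2 control lentiviruses was compared, F0_3NC against F0_5NC, over all genes of the expression table. The comparison set 6 of the 12 libraries of the series against each other, 3 per group. All 12 libraries entered the fit, in which 16296 of the 20718 genes passed the filter on low counts and could be tested. The animals were male mice of the F0 generation (strain given as IRC mouse in the labels and as ICR in the study's methods), injected into the testes at 4 weeks of age, housed with females for 4 days at 9 weeks and kept for 4 more days before collection. The F0_3NC virus was built on the LV3 vector, the backbone of the knockdown virus, and carried a negative-control short hairpin RNA. The F0_5NC virus was the empty LV5 vector, the backbone of the overexpression virus. Neither carried a sequence meant to act on lncRNA5251, the long non-coding RNA that the study knocked down or overexpressed.

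The same pair of backbones was present in the other 6 libraries, F0_5251KD (LV3 with hairpins against lncRNA5251) and F0_5251OV (LV5 with lncRNA5251), which share no library with the controls. Between those groups the backbones differ together with opposed treatments, so F0_5251KD vs F0_5251OV is a second comparison of LV3 with LV5 viruses but not of the vectors alone. Between the controls themselves, the backbone, the presence of a hairpin and any batch that followed the virus cannot be told apart, and the labels name no batch. Whether each group's 3 libraries come from 3 different animals is not given in the labels, and the p-values therefore measure library-to-library spread, which may be technical. Whole testis was sequenced, and the share of cells that took up virus was not analysed here.

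Lentiviral vectors copy their RNA genome into DNA and insert it into the host genome, and a hairpin expressed from them is cut into a short RNA that enters the RNA interference pathway. Control vectors are meant to carry over every effect of injection and transduction except that of the tested sequence. Immediate early genes, such as those of the AP-1, Egr and Nr4a transcription factor families, are transcribed within minutes of a stimulus from promoters that are already primed, and their products include the inhibitors and mRNA decay factors that end the response. Interferon-stimulated genes respond instead to foreign nucleic acid. These groups, the cell types of the testis and the tissues next to it were covered by gene lists.

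The hairpin of the F0_3NC virus is shown because F0_3NC carried a control hairpin, while F0_5NC was an empty vector. The viruses also differ in their backbones, whose sequences were not compared. Both strands are written 5′ to 3′ as DNA, with bases 2 to 8, the seed of a strand that is loaded into the silencing complex, in capitals.
Sense strand: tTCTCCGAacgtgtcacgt
Antisense strand: aCGTGACAcgttcggagaa

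The 19-base sequence was found, in either orientation and with 0 mismatches allowed, in 0 of 141767 annotated mouse transcripts. Sites for its seeds, TGTCACG for the antisense strand and TCGGAGA for the sense strand, lay in the annotated 3′ UTR of 503 (3.21%) and 404 (2.57%) of the 15691 tested genes with such a region. The median log2 fold change between the controls was -0.01 for the 503 genes and -0.02 for the 404 genes, beside 0.00 for the genes without the site. At an adjusted p under 0.05 (edgeR), 2 of the 503 genes with an antisense-strand site were higher and 1 was lower. Of the 15188 genes without that site 43 were higher and 8 were lower. Of the 404 genes with a sense-strand site 2 were higher and 0 were lower, beside 43 and 9 of the 15287 without it. Genes with sites had longer 3′ UTRs (medians of 2694 and 2685 bases against 1185 and 1193), and which strand is loaded is not stated.

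The 2 control viruses differed in 54 genes (edgeR's quasi-likelihood test, Benjamini-Hochberg adjusted p under 0.05), which is 0.331% of the 16296 tested. Of these, 45 (0.276%) were higher in F0_3NC and 9 (0.0552%) were lower. By p-value the higher genes were led by Egr1, Errfi1, Btg2 and Myc, all of them early response genes or regulators of growth factor signalling. The median log2 fold change was 1.54 over the 45 higher genes and -1.46 over the 9 lower genes, beside 0.00 over all genes. A change of at least 2-fold was seen in 44 of the 54, of at least 4-fold in 15 and of at least 8-fold in 9.

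In all 54 genes the F0_3NC and F0_5NC libraries were fully separate, as they were in 2770 of all tested genes (17.0%). Before adjustment 1936 genes had a p under 0.05, 1045 higher and 891 lower, so the calls lay mainly on one side while the unadjusted list was more even. A further 291 genes changed by at least 2-fold but did not pass the threshold. The count of called genes was 35 without F0_3NC replicate 2 and 30 without F0_5NC replicate 3, the libraries that moved it most. DESeq2 on the same counts called 138 genes, 86 higher and 52 lower, of which 53 were among the 54.

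**Figure D1:**
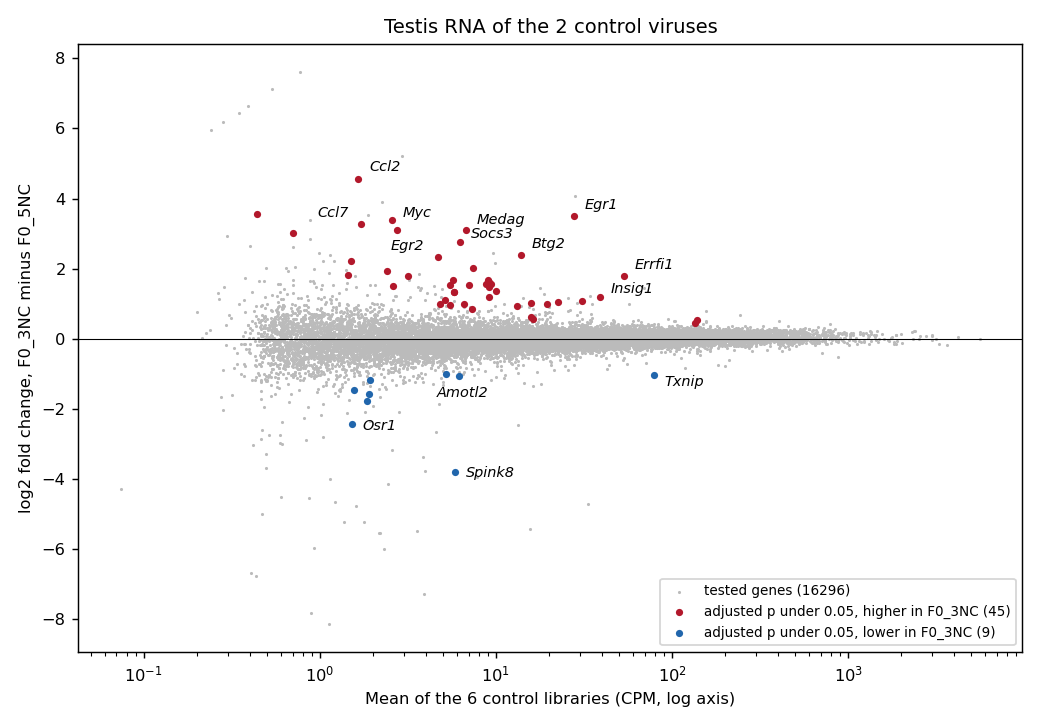
Each point is 1 of the 16296 tested genes, with its mean over the 6 control libraries in CPM (estimated counts scaled to the library total, log axis) and its log2 fold change, F0_3NC minus F0_5NC. The 45 called genes above 0 are mostly at low to middle levels and the 9 below 0 are fewer, while many grey points at low levels lie as far from 0 and were not called.

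Values are given as CPM, the estimated counts scaled to a library's effective total, and libraries of a group are given in the order of replicates 1, 2 and 3. Adjusted p-values are from edgeR over all tested genes, coordinates are those of GRCm38.p6, and log2 fold changes, also where a value stands alone after a gene's name, are F0_3NC minus F0_5NC. CPM is not scaled by gene length, so it is compared between libraries of 1 gene and not between genes.

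Several of the higher genes encode transcription factors. Egr1 (gene ID 13653, chr18:34861207-34864956), a zinc finger factor induced by growth factors, was at 54.3, 50.7 and 47.1 CPM in the F0_3NC libraries and at 5.99, 3.3 and 4.09 CPM in the F0_5NC libraries. Its lowest F0_3NC library was several times its highest F0_5NC library, and the log2 fold change was 3.49 (adjusted p = 2e-07, SE 0.166), an 11.3-fold difference. Egr2 (gene ID 13654, chr10:67534469-67542188), of the same family, was at 4.51, 5.59 and 4.76 CPM in the F0_3NC libraries and at 0.899, 0.33 and 0.448 CPM in the F0_5NC libraries, with a log2 fold change of 3.11 (adjusted p = 0.000619, SE 0.344). The groups of both genes were far apart relative to their spread. Nr4a3 (gene ID 18124, chr4:48045078-48086447), an orphan nuclear receptor, was at 9.6, 14.5 and 11.6 CPM in the F0_3NC libraries and at 3.12, 2.58 and 3.07 CPM in the F0_5NC libraries, with a log2 fold change of 2.02 (adjusted p = 0.000394, SE 0.211). Its spread lay mainly within F0_3NC, where replicate 2 was highest, and limma on log2(FPKM + 0.1) did not call it (adjusted p = 0.108, against 9.22e-14 to 0.0342 under the other alternatives).

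Myc (gene ID 17869, chr15:61985341-61990361), a factor that drives cell growth, was at 4.9, 4.93 and 4.23 CPM in the F0_3NC libraries and at 0.36, 0.33 and 0.64 CPM in the F0_5NC libraries. It was low in every F0_5NC library, with 5 to 10 counts in each, and the log2 fold change was 3.38 (adjusted p = 4.56e-05, SE 0.275). Fosl2 (gene ID 14284, chr5:32136472-32157840), an AP-1 subunit, was at 11, 18.6 and 12.6 CPM in the F0_3NC libraries and at 5.81, 4.63 and 3.84 CPM in the F0_5NC libraries, with a log2 fold change of 1.56 (adjusted p = 0.00232, SE 0.196). The other AP-1 subunits past the threshold were Junb (13.8 ± 2.91 against 4.44 ± 1.45 CPM, SD, n = 3) and Fos (3.82 ± 0.951 against 0.984 ± 0.251 CPM, SD, n = 3), with log2 fold changes of 1.63 (adjusted p = 0.00422, SE 0.226) and 1.94 (adjusted p = 0.005, SE 0.276). Maff, a small Maf protein that pairs with other basic leucine zipper factors, had a log2 change of 1.79 (adjusted p = 0.00422, SE 0.249). Bach1, which represses heme oxygenase genes, had a log2 change of 0.98 (adjusted p = 0.0247, SE 0.171), and Bhlhe40, a repressor tied to the circadian clock, had a log2 change of 1.19 (adjusted p = 0.0434, SE 0.223). Of these factors, Bach1 and Bhlhe40 were not called without at least 1 of the libraries, F0_5NC replicates 2 and 3 and F0_3NC replicate 2 among them for both.

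Not every member of these families passed the threshold. Of the 8 AP-1 genes tested 3 were higher and 0 lower at the threshold, with a median log2 fold change of 1.43 (1.26 to 1.54 when 1 library was left out), and Atf3 (2.23, adjusted p = 0.0765), Fosb (1.31, adjusted p = 0.0652), Jun (0.29, adjusted p = 0.511) and Jund (-0.05, adjusted p = 0.928) were not called. Atf3 and Fosb passed with DESeq2 (adjusted p = 0.0036 and 0.00217) and in the fit of the 2 control groups alone (adjusted p = 0.0337 and 0.0343). Over all alternatives the adjusted p ran from 0.0036 to 0.24 for Atf3 and from 0.00217 to 0.219 for Fosb. Of the 7 Egr and Nr4a genes 3 were higher and 0 lower, with a median of 1.13, which was 0.72 without F0_3NC replicate 2. Nr4a1 had a log2 fold change of 0.10 (SE 0.157) at a mean of 46.5 CPM in F0_3NC and 43.5 CPM in F0_5NC, Egr3 had 0.17 and Egr4 had -0.48, and none of these passed. Among 15 Klf, Myc and other early factors Myc, Ier3 and Maff were higher and 0 were lower, with a median of 0.19 (0.13 without F0_5NC replicate 3 and 0.33 without F0_5NC replicate 1), and Klf4 (0.07), Klf2 (-0.03) and Srf (-0.14) were close to 0.

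Inhibitors of receptor and MAP kinase signalling formed the next group. Errfi1 (gene ID 74155, chr4:150853796-150868889), which binds and inhibits EGF receptors, was at 83.8, 87.8 and 75.9 CPM in the F0_3NC libraries and at 24.6, 26.2 and 21.5 CPM in the F0_5NC libraries. The 3 libraries of each group were close to each other, and the log2 fold change of 1.78 (adjusted p = 7.82e-07, SE 0.0991) had the second smallest p of all genes. Dusp1 (gene ID 19252, chr17:26505591-26508472), a phosphatase of MAP kinases, was at 16.3, 18.4 and 17.3 CPM in the F0_3NC libraries and at 9.11, 9.51 and 8.63 CPM in the F0_5NC libraries, with a log2 change of 0.93 (adjusted p = 0.00422, SE 0.127). Trib1 (gene ID 211770, chr15:59648654-59657099), a pseudokinase that brings proteins to a ubiquitin ligase, was at 13.7, 14.9 and 12.5 CPM in the F0_3NC libraries and at 4.31, 4.69 and 3.84 CPM in the F0_5NC libraries, with a log2 change of 1.68 (adjusted p = 0.00021, SE 0.162). In these 3 genes the libraries of a group lay close together. Socs3 (gene ID 12702, chr11:117966079-117970336), an inhibitor of cytokine receptor signalling, was at 7.54, 14.4 and 10.9 CPM in the F0_3NC libraries and at 2.04, 1.45 and 1.28 CPM in the F0_5NC libraries, with a log2 change of 2.77 (adjusted p = 0.000313, SE 0.28). Its F0_3NC libraries spread over nearly a 2-fold range but stayed above all F0_5NC libraries. Among 11 MAP kinase feedback genes Errfi1 and Dusp1 were higher and 0 were lower, with a median of 0.37 (0.15 without F0_3NC replicate 2). Spry2 (0.82), Spry4 (0.49), Dusp6 (0.38) and Dusp4 (0.04) did not pass.

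Btg2 and Zfp36 act on mRNA stability, Btg2 by recruiting the deadenylase complex and Zfp36 by binding AU-rich elements. Btg2 (gene ID 12227, chr1:134074865-134079155) was at 24, 23.5 and 22.1 CPM in the F0_3NC libraries and at 5.39, 4.03 and 3.9 CPM in the F0_5NC libraries, with a log2 fold change of 2.38 (adjusted p = 1.92e-05, SE 0.176). Zfp36 (gene ID 22695, chr7:28376784-28379228) was at 13.6, 14.4 and 12.2 CPM in the F0_3NC libraries and at 5.51, 4.36 and 4.61 CPM in the F0_5NC libraries, with a log2 change of 1.47 (adjusted p = 0.000123, SE 0.134). Both were higher in every F0_3NC library, while their relatives Btg1 (0.17), Tob1 (0.22), Zfp36l1 (0.04) and Zfp36l2 (0.17) were not called, so the list of 7 had 2 higher, 0 lower and a median of 0.17. Ifrd1 (gene ID 15982, chr12:40203129-40223189), a co-regulator of transcription, was at 37.9, 46.9 and 40.7 CPM in the F0_3NC libraries and at 18.2, 21.1 and 20.5 CPM in the F0_5NC libraries, with a log2 change of 1.07 (adjusted p = 0.00232, SE 0.135). Ier3 (gene ID 15937, chr17:35821713-35822911), an early gene linked to cell survival, was at 6.38, 8.76 and 8.26 CPM in the F0_3NC libraries and at 2.04, 1.26 and 1.34 CPM in the F0_5NC libraries, with a log2 change of 2.32 (adjusted p = 0.000416, SE 0.247). Plk3, a stress-responsive kinase, rose from 0.633 ± 0.0616 to 2.27 ± 0.16 CPM (SD, n = 3).

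**Figure D2:**
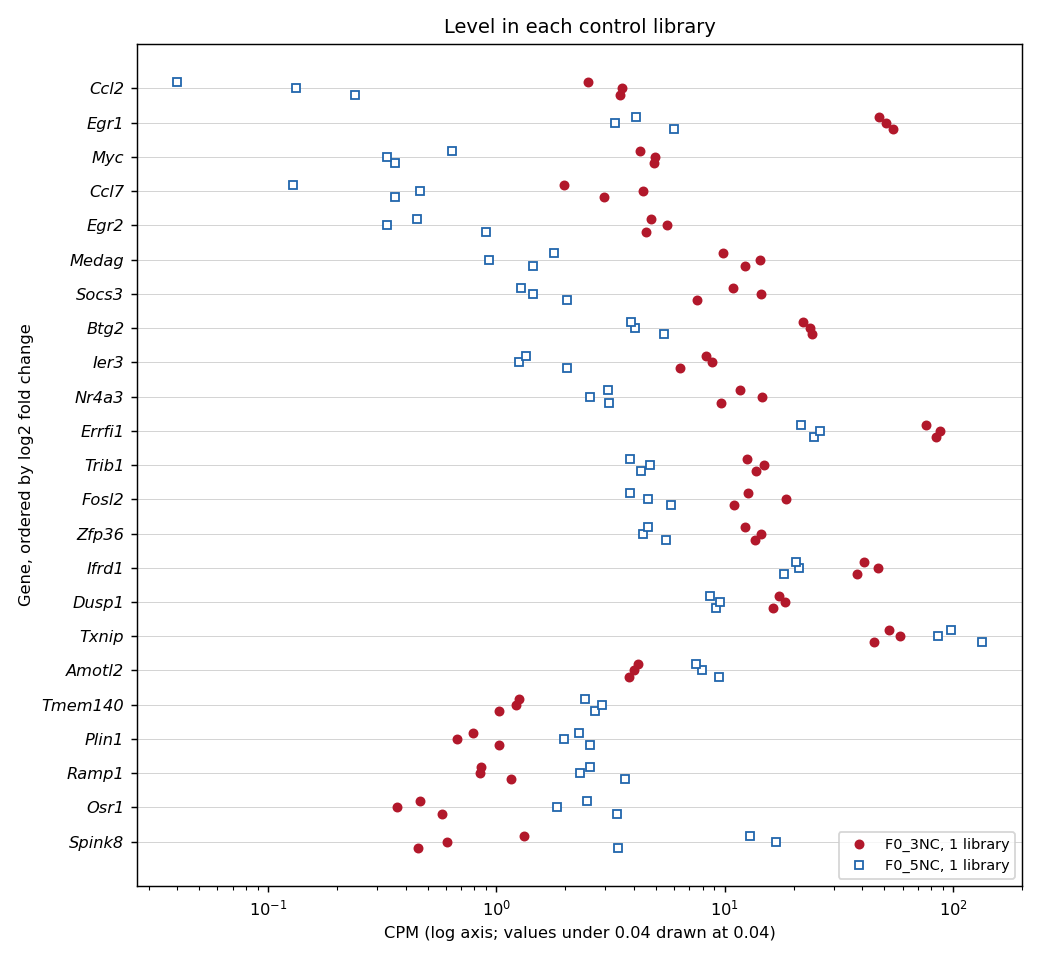
The level of 23 called genes in each control library is shown in CPM on a log axis, filled circles for F0_3NC and open squares for F0_5NC, with replicates 1 to 3 offset from bottom to top within a row. In every row the circles and squares do not overlap. The widest gap is in Ccl2 (a log2 fold change of 4.57), where 1 F0_5NC library had 0 counts and is drawn at the left edge.

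The chemokine genes Ccl2, Ccl7 and Cx3cl1 were higher in F0_3NC. Ccl2 (gene ID 20296, chr11:82035577-82037452) and Ccl7 (gene ID 20306, chr11:82045712-82047525), neighbouring genes for chemokines that attract monocytes, were at low levels. Ccl2 was at 3.48, 3.53 and 2.51 CPM in the F0_3NC libraries and at 0.24, 0.132 and 0 CPM in the F0_5NC libraries, from 54, 58 and 38 counts against 4, 2 and 0, and its log2 fold change was 4.57 (adjusted p = 0.000394, SE 0.479). Ccl7 was at 2.96, 4.38 and 1.98 CPM in the F0_3NC libraries and at 0.36, 0.463 and 0.128 CPM in the F0_5NC libraries, from 46, 72 and 30 counts against 6, 7 and 2, with a log2 change of 3.27 (adjusted p = 0.00268, SE 0.419). The difference was clear in both, but its size rests on few counts in F0_5NC. Cx3cl1, a membrane-bound chemokine, had 8.12 ± 1.83 against 2.79 ± 0.273 CPM (SD, n = 3) and a log2 change of 1.54 (adjusted p = 0.00864, SE 0.233), and was not called without F0_5NC replicate 2 or 3. Icosl, a ligand for T cell co-stimulation, had a log2 change of 1.10 (adjusted p = 0.049, SE 0.212) and lost its call without F0_3NC replicate 1 or 2 or F0_5NC replicate 2 or 3.

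Of the 17 listed chemokines and NF-κB early genes 10 could be tested, 3 were higher (Ccl2, Ccl7 and Socs3) and 0 lower, with a median of 0.80, which was 0.53 without F0_3NC replicate 2. Cxcl1 had 2.84 (adjusted p = 0.162), Il1b 0.81 (adjusted p = 0.273) and Nfkbia, the inhibitor of NF-κB, -0.37 (adjusted p = 0.305). Ccl3, Ccl4, Cxcl2, Cxcl10, Il6, Tnf and Ptgs2 did not pass the filter on low counts. Ptgs2, a prostaglandin synthase, had 2, 10 and 9 counts in F0_3NC and 23, 137 and 5 counts in F0_5NC, so its libraries overlapped and the higher sum of F0_5NC came mainly from replicate 2. Of 13 interferon-stimulated genes tested 0 were called in either direction, and none had an unadjusted p under 0.05. Their summed level was 39.5, 109 and 42.9 CPM in F0_3NC and 69.1, 91.3 and 37 CPM in F0_5NC, so high and low libraries stood in both groups. The median of -0.12 was -0.58 without F0_3NC replicate 2 and 0.20 without F0_5NC replicate 2. The lists of 11 nucleic acid sensors (median 0.15), 10 small RNA processing genes (0.00), 9 heat shock genes (0.07) and 9 glucocorticoid-responsive genes (0.11) had 0 calls. With 0.331% of all tested genes called, 0 calls is the usual count for lists of these lengths, the interferon list included. When 1 library was left out, the median ran from -0.12 (without F0_3NC replicate 2) to 0.23 for the sensors, from -0.04 to 0.03 for small RNA processing, from 0.04 to 0.11 for heat shock and from 0.02 (without F0_5NC replicate 2) to 0.25 (without F0_5NC replicate 1) for the glucocorticoid list. The hypoxia list of 10 had 1 (Hmox1) and the circadian clock list of 13 had 1 (Bhlhe40).

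Genes of cholesterol synthesis made a further group, described with lists added after the values were seen. Insig1, which holds the sterol sensor in the endoplasmic reticulum, was at 51.7, 63.5 and 47.6 CPM in the F0_3NC libraries and at 26.8, 22.2 and 21.9 CPM in the F0_5NC libraries, with a log2 change of 1.20 (adjusted p = 0.00422, SE 0.165). Cyp51, a demethylase of the sterol ring pathway, was at 151, 182 and 160 CPM in the F0_3NC libraries and at 114, 115 and 112 CPM in the F0_5NC libraries, with a log2 change of 0.53 (adjusted p = 0.049, SE 0.102). Of 22 genes of synthesis and uptake, 3 were higher, Insig1 and Cyp51 among them, and 0 lower at the threshold, and 20 had a log2 fold change above 0. The median was 0.34 (0.26 to 0.37 without 1 library), beside 0.00 over all genes. Their summed level was 1730, 1900 and 1670 CPM in F0_3NC and 1330, 1310 and 1440 CPM in F0_5NC, with no overlap. Msmo1 (0.98), Hmgcs1 (0.78) and Sc5d (0.76) had adjusted p-values of 0.164, 0.164 and 0.308 and were not called. Cyp51 was not called without any one of the 6 libraries, and the list had 1 to 2 called genes when 1 library was left out.

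Other called genes bear on steroid and heme metabolism. Mrap, an accessory protein of the ACTH receptor, was at 14.6, 14.2 and 14.1 CPM in the F0_3NC libraries and at 6.53, 5.75 and 4.54 CPM in the F0_5NC libraries, with a log2 change of 1.35 (adjusted p = 0.0244, SE 0.235). Nr1h4, the bile acid receptor, was at 1.68, 1.03 and 1.06 CPM in the F0_3NC libraries and at 0.12, 0.198 and 0.128 CPM in the F0_5NC libraries, from 26, 17 and 16 counts against 2, 3 and 2, with a log2 change of 3.02 (adjusted p = 0.0238, SE 0.524). Both lost their call without any one of the 6 libraries. Hmox1, heme oxygenase 1, was at 20.3, 19.6 and 23.6 CPM in the F0_3NC libraries and at 11.9, 9.05 and 10.4 CPM in the F0_5NC libraries, with a log2 change of 1.02 (adjusted p = 0.00422, SE 0.141). Of 11 Leydig cell genes 0 were called, beside 0.331% of all tested genes. Star, which moves cholesterol into mitochondria, had 0.67 (adjusted p = 0.281) and Insl3, a Leydig cell hormone, had -0.51 (adjusted p = 0.452).

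Several cell surface and matrix genes were higher. Thbd, the thrombin receptor thrombomodulin, had a log2 change of 1.34 (adjusted p = 0.0289, SE 0.24), and F3, tissue factor, had a log2 change of 1.32 (adjusted p = 0.0433, SE 0.247). Of 11 clotting and fibrinolysis genes tested, in a list added after the values were seen, 3 were higher, Thbd and F3 among them, 0 were lower and the median was 0.28. The list had 0 to 2 called genes when 1 library was left out. Without F0_5NC replicate 2 or 3 neither Thbd nor F3 was called, and the median ranged from 0.13 to 0.61 when 1 library was left out. Thbs1, a matrix glycoprotein, had a log2 change of 0.99 (adjusted p = 0.0238, SE 0.172) and lost its call without F0_3NC replicate 1 or 2 or any F0_5NC replicate. Among 8 SRF and YAP target genes 2 were higher, Thbs1 among them, and Amotl2 was lower. The median of 0.18 was 0.05 without F0_5NC replicate 2 and 0.47 without F0_5NC replicate 1.

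Medag (gene ID 70717, chr5:149367641-149431723), a gene of fat cell differentiation, had one of the largest changes. It was at 12.2, 14.2 and 9.78 CPM in the F0_3NC libraries and at 1.44, 0.925 and 1.79 CPM in the F0_5NC libraries, with a log2 fold change of 3.11 (adjusted p = 8.71e-05, SE 0.272), and was called under all 14 alternatives (the 6 libraries left out in turn and 8 other fits). Further higher genes were Tmem252 (2.23, adjusted p = 0.00422), Emp1 (1.53, adjusted p = 0.00803), Ugdh (1.55, adjusted p = 0.0114), the integrin gene Itga5 (1.67, adjusted p = 0.0119), Sema4b (0.99, adjusted p = 0.018), 9130204L05Rik (0.85, adjusted p = 0.0188), Frmd6 (0.56, adjusted p = 0.027), Col12a1 (0.63, adjusted p = 0.0409), Akap2 (1.04, adjusted p = 0.0433), Gcnt4 (0.97, adjusted p = 0.049) and Gm6377 (3.55, adjusted p = 0.049), all given as log2 fold changes. Gm6377 had 10, 18 and 11 counts in the F0_3NC libraries and 2, 0 and 1 in the F0_5NC libraries, and the size of its change rests on those few counts. Akap2 had no entry in the reference annotation used for coordinates. Of the 54 genes, 31 were in none of the 29 lists written with the design.

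The lower genes were fewer and more varied. Osr1 (gene ID 23967, chr12:9574442-9581500), a zinc finger factor of urogenital development, was at 0.58, 0.365 and 0.462 CPM in the F0_3NC libraries and at 3.36, 1.85 and 2.49 CPM in the F0_5NC libraries. Counts were 9, 6 and 7 against 56, 28 and 39, and the log2 fold change was -2.44 (adjusted p = 0.00422, SE 0.328). Amotl2 (gene ID 56332, chr9:102717091-102733418), an angiomotin protein that binds YAP, was at 3.8, 4.01 and 4.16 CPM in the F0_3NC libraries and at 9.47, 7.93 and 7.48 CPM in the F0_5NC libraries, with a log2 change of -1.05 (adjusted p = 0.00422, SE 0.146). These 2 were the lower genes that were called under all 14 alternatives. Txnip (gene ID 56338, chr3:96557957-96561857), a thioredoxin-binding protein and brake on glucose uptake, was at 45, 58.4 and 52.5 CPM in the F0_3NC libraries and at 134, 86.1 and 98.1 CPM in the F0_5NC libraries. Every F0_3NC library was below every F0_5NC library, with a log2 change of -1.03 (adjusted p = 0.00864, SE 0.156), but the gene was not called without F0_3NC replicate 1.

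Plin1 (gene ID 103968, chr7:79721164-79732904), the protein coat of fat droplets in adipocytes, was at 1.03, 0.669 and 0.793 CPM in the F0_3NC libraries and at 2.58, 1.98 and 2.3 CPM in the F0_5NC libraries, with a log2 change of -1.46 (adjusted p = 0.0219, SE 0.248). Ramp1 (gene ID 51801, chr1:91179822-91225196), a partner of the calcitonin-like receptor, was at 1.16, 0.851 and 0.859 CPM in the F0_3NC libraries and at 3.66, 2.31 and 2.56 CPM in the F0_5NC libraries, with a log2 change of -1.57 (adjusted p = 0.0219, SE 0.267). Tmem140 (gene ID 68487, chr6:34863146-34874946) was at 1.03, 1.22 and 1.26 CPM in the F0_3NC libraries and at 2.7, 2.91 and 2.43 CPM in the F0_5NC libraries, with a log2 change of -1.19 (adjusted p = 0.0484, SE 0.228), and Paqr6 had a log2 change of -1.01 (adjusted p = 0.049, SE 0.195). These 4 genes were separate in all libraries but lost their calls without F0_3NC replicate 2 or 3 or F0_5NC replicate 1 or 3, and other libraries in part. Plin1 was the only one of 7 adipocyte genes called, and the median of that list ran from -0.98 to 0.36 when 1 library was left out. Fabp4 (-1.06, adjusted p = 0.542) and Cfd (-0.84, adjusted p = 0.684) were not called, and Adipoq had 0.14.

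Spink8 (gene ID 78709, chr9:109812203-109826628), a protease inhibitor of the epididymis, was at 0.451, 0.608 and 1.32 CPM in the F0_3NC libraries and at 3.42, 16.7 and 12.9 CPM in the F0_5NC libraries. F0_5NC replicates 2 and 3 were several times higher than replicate 1, and the log2 fold change was -3.79 (adjusted p = 0.0235, SE 0.651). The call was lost without any F0_3NC library, and without F0_5NC replicate 2 or 3. Of 14 epididymis genes 7 could be tested, 0 were higher and 1 was lower at the threshold. Adam7 had -7.27 (adjusted p = 0.164), Crisp1 -4.70 (adjusted p = 0.184) and Cuzd1 -2.45 (adjusted p = 0.249). The remaining tested members did not share this size or direction, with Rnase10 at -0.14, Teddm1b at 0.01 and Defb21 at 0.30, and none of them was called. The summed level of the list was 10.8, 13.7 and 18 CPM in F0_3NC and 25.9, 141 and 171 CPM in F0_5NC, and 8.07 to 10.4 CPM in F0_5251KD and 13.1 to 120 CPM in F0_5251OV. The epididymis lies against the testis, and the part of its RNA in Spink8 and in the other lower genes was not tested. When 1 library was left out, the list median lay between -1.61 and -0.89. The filter was applied anew each time, so those medians can cover other members than the 7 behind the full-set median of -2.45. A change of members and the weight of single libraries were not separated.

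Markers of the tissue itself were present in all libraries, and none of the cell type lists within the testis held a called gene. Over all 16296 tested genes the called share was 0.331%, and at that share lists this short would mostly hold 0 calls. Elongating spermatid genes summed to 23900 to 31000 CPM over the control libraries. The medians of the germ cell lists were 0.03 for 10 spermatogonial, 0.10 for 15 spermatocyte, 0.10 for 12 round spermatid and -0.02 for 12 elongating spermatid genes. All 16 Sertoli cell genes had log2 fold changes below 0, with a median of -0.22 and Amh at -1.23 (adjusted p = 0.222). Their summed level was 1100, 850 and 990 CPM in F0_3NC and 1590, 1100 and 1080 CPM in F0_5NC, with F0_5NC replicate 1 apart, and without that library the median was -0.06. In bulk RNA, fewer Sertoli cells and less RNA per cell cannot be told apart. The other medians were -0.01 for Leydig cells, -0.16 for peritubular smooth muscle, -0.14 for endothelium, -0.29 for macrophages, -0.09 for MHC class II, 0.06 for the 3 testable T and NK cell genes, -0.01 for skeletal muscle and 0.31 for red blood cells. Several of them shifted when 1 library was left out, where the members that passed the filter can differ too. Leaving out 1 library moved the median from -0.21 (without F0_3NC replicate 2) to 0.14 (without F0_3NC replicate 1) for Leydig cells and from -0.43 (without F0_3NC replicate 2) to -0.07 (without F0_5NC replicate 1) for macrophages. It ran from -1.0 (without F0_3NC replicate 2) to 0.27 (without F0_3NC replicate 1) for MHC class II and from 0.05 (without F0_5NC replicate 3) to 0.50 (without F0_5NC replicate 2) for red blood cells. Cd14, a receptor for bacterial lipopolysaccharide, was the macrophage gene farthest from 0, at 1.85 (adjusted p = 0.105).

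**Figure D3:**
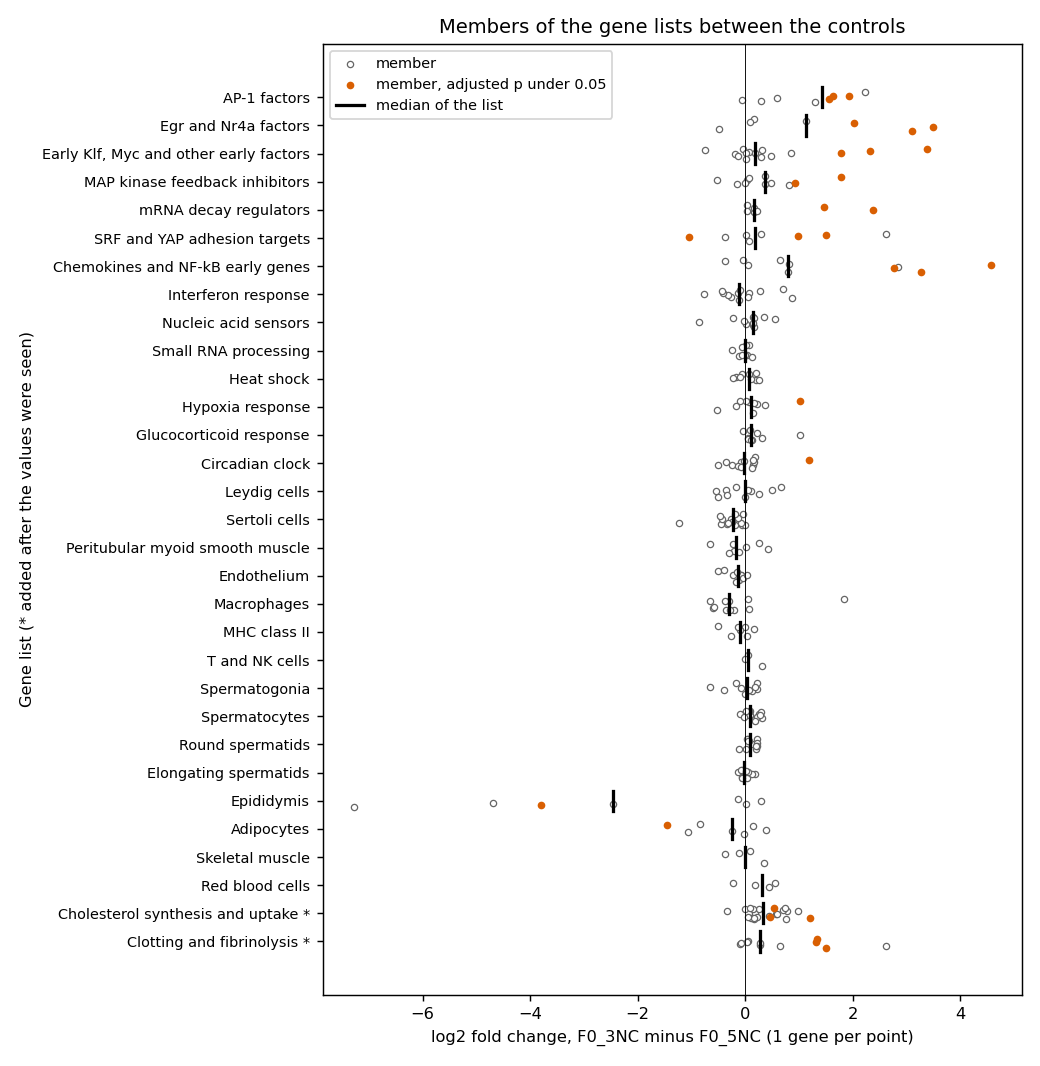
Each point is a tested gene of a list, placed at its log2 fold change, F0_3NC minus F0_5NC, with called genes filled and the list median as a black bar. Called genes sit mainly in the upper 7 early response lists, the AP-1 and the Egr and Nr4a medians are the farthest above 0 (1.43 and 1.13), and the epididymis median is the farthest below (-2.45).

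The 7 early response lists (AP-1, Egr and Nr4a, Klf and Myc, MAP kinase feedback, mRNA decay, SRF and YAP, chemokines and NF-κB) held 74 different genes, of which 66 could be tested. They had 18 higher and 1 lower called gene, beside 45 (0.276%) and 9 (0.0552%) of all 16296 tested genes. Of the 66, 53 had a log2 fold change above 0, and the median was 0.34, beside 0.00 over all genes. An unadjusted p under 0.05 (edgeR) was found for 33 higher and 5 lower genes, beside 1045 and 891 of all tested genes. The lists were written with earlier results of these data known, so the counts describe the lists and are no independent evidence of their direction.

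**Figure D4:**
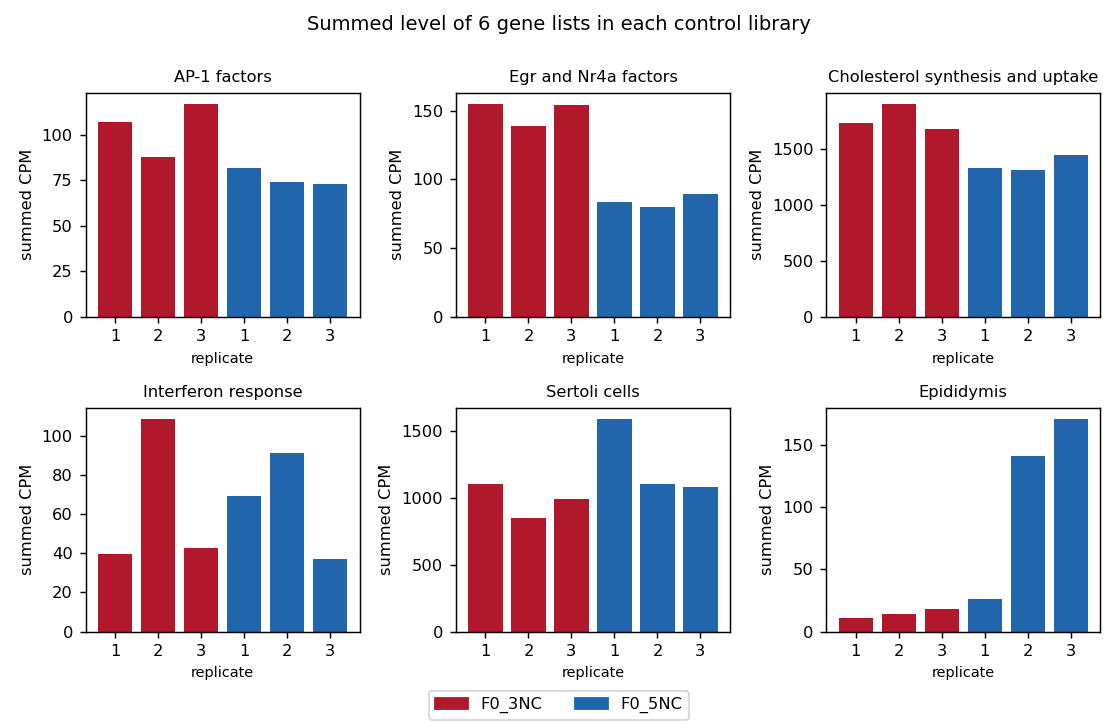
Bars give the summed CPM of 6 lists in each control library, F0_3NC in red and F0_5NC in blue. The AP-1, Egr and Nr4a, and cholesterol sums do not overlap between the groups. The interferon sum is high in 1 F0_3NC and in 2 F0_5NC libraries (109, 69.1 and 91.3 CPM), F0_5NC replicate 1 leads the Sertoli cell sum (1590 CPM), and F0_5NC replicates 2 and 3 lead the epididymis sum (141 and 171 CPM).

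Libraries were of nearly equal depth, with 15431383 to 16355720 estimated counts over the 12 and 18611 to 18722 genes with a count. Within the controls F0_3NC replicate 2 and F0_5NC replicate 1 stood apart. For F0_3NC replicate 2 the chi-square per gene against the other F0_3NC libraries was 17.7 and 20.2, while that between the other two was 3.73, and for F0_5NC replicate 1 it was 13.1 and 9.7, with 5.29 between the others of its group, so no pair agreed within sampling noise. F0_3NC replicate 2 also had the highest summed level of MHC class II genes (128 CPM against 46.1 and 54.6) and heat shock genes (4450 CPM against 3510 and 3560) in its group. Without it 31 of the 54 genes were called, and without F0_5NC replicate 1 39 of them.

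Whether the same genes separate LV3 from LV5 viruses in the treated groups was examined in F0_5251KD vs F0_5251OV. These groups share no library with the controls, but both comparisons came from the same fit of all 12 libraries. They share its filter and its estimates of spread, so the calls of one are not independent of the other. In a fit of the control groups alone 47 genes were called, 34 of them among the 54. Between F0_5251KD and F0_5251OV 48 genes (0.295%) were called, 47 higher and 1 lower in F0_5251KD, and 2134 genes (13.1%) did not overlap between the groups. Of the 45 genes higher in F0_3NC, 29 were also called as higher in F0_5251KD, which is 53.7% of the 54 and 60.4% of the 48. A log2 fold change above 0 was seen in 43 of the 45, and in 40 the libraries of F0_5251KD and F0_5251OV did not overlap in that direction. The median over the 45 genes was 1.44, against -0.004 over all genes. Of the 9 lower genes 6 were also lower, 0 were called, 3 had the opposite sign, and the median was -0.22.

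Values are log2 fold changes of F0_5251KD minus F0_5251OV, set beside those of F0_3NC minus F0_5NC. Errfi1 had nearly equal values in both. It was at 101, 85.5 and 100 CPM in the F0_5251KD libraries and at 25.2, 27.1 and 27.4 CPM in the F0_5251OV libraries, with a log2 change of 1.84 (SE 0.0987, adjusted p = 2.29e-07) beside 1.78 between the controls. Ccl7 was at 1.46, 1.17 and 1.98 CPM in the F0_5251KD libraries and at 0.125, 0.131 and 0.194 CPM in the F0_5251OV libraries, with a log2 change of 3.29 (SE 0.507, adjusted p = 0.00933) beside 3.27, Insig1 had 1.33 beside 1.20, Itga5 1.49 beside 1.67, and F3 1.40 beside 1.32. These genes were called in both comparisons. Spink8 was at 0.381, 0.519 and 0.383 CPM in the F0_5251KD libraries and at 7.46, 8.81 and 1.94 CPM in the F0_5251OV libraries, with a log2 change of -3.80 (SE 0.732, adjusted p = 0.051) beside -3.79, just outside the threshold.

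Some early genes had larger estimates between the treated groups. Fos was at 9.09, 12.7 and 12.6 CPM in the F0_5251KD libraries and at 0.313, 0.457 and 0.646 CPM in the F0_5251OV libraries, with a log2 change of 4.58 (SE 0.296, adjusted p = 2e-06) beside 1.94 between the controls. Egr1 was at 115, 92.3 and 111 CPM in the F0_5251KD libraries and at 3.64, 3.52 and 3.17 CPM in the F0_5251OV libraries, with a log2 change of 4.94 (SE 0.175, adjusted p = 4.02e-09) beside 3.49. The F0_5251KD libraries of both genes lay above all F0_3NC libraries, while the F0_5251OV libraries lay below all F0_5NC libraries for Fos and overlapped them for Egr1. Btg2 had 3.89 beside 2.38, Egr2 4.65 beside 3.11, Junb 3.25 beside 1.63, Zfp36 2.55 beside 1.47, and Plk3 2.93 beside 1.83. Smaller estimates were found in Medag (1.08 beside 3.11), Ccl2 (2.59 beside 4.57), Tmem252 (0.74 beside 2.23) and Osr1 (-0.93 beside -2.44).

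Several genes called between the controls had estimates near 0 or of opposite sign between the treated groups. Nr1h4 was at 0.445, 0.259 and 0.0639 CPM in the F0_5251KD libraries and at 0.251, 0.392 and 0.194 CPM in the F0_5251OV libraries, with a log2 change of -0.12 (SE 0.591, adjusted p = 0.993). Amotl2 was at 6.48, 6.87 and 7.86 CPM in the F0_5251KD libraries and at 7.71, 7.51 and 6.4 CPM in the F0_5251OV libraries, with a log2 change of -0.03 (SE 0.141, adjusted p = 0.993) and a 95% interval of -0.33 to 0.28. Gcnt4 (0.08), Col12a1 (0.13) and Tmem140 (0.10) were also near 0. Plin1 was at 2.29, 2.01 and 2.3 CPM in the F0_5251KD libraries and at 1.13, 1.24 and 0.905 CPM in the F0_5251OV libraries, with a log2 change of 1.01 (SE 0.24, adjusted p = 0.169), the opposite sign from -1.46 between the controls.

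The difference between the 2 comparisons was tested for each gene in the same fit. edgeR called 0 of 16296 genes, the smallest adjusted p was 0.105 (Plin1), and 1842 genes had an unadjusted p under 0.05, among them 28 of the 54 (21 of the 45 higher and 7 of the 9 lower). The unadjusted p was 2.91e-05 for Fos, 3.45e-05 for Btg2, 3.72e-05 for Egr1, 0.000127 for Medag and 0.000201 for Amotl2, with adjusted p-values between 0.151 and 0.208 by edgeR, so these differences in size did not pass the correction. DESeq2 called 35 genes for the difference, limma on log2(FPKM + 1) called 1 and limma on log2(FPKM + 0.1) called 0. As a description across genes, the log2 fold changes of both comparisons correlated at r = 0.74 (Pearson) and rho = 0.77 (Spearman) over the 54 genes, and at r = 0.27 and rho = -0.16 over all genes. Genes share these libraries and are not independent, and the 54 were selected in one of the 2 comparisons.

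**Figure D5:**
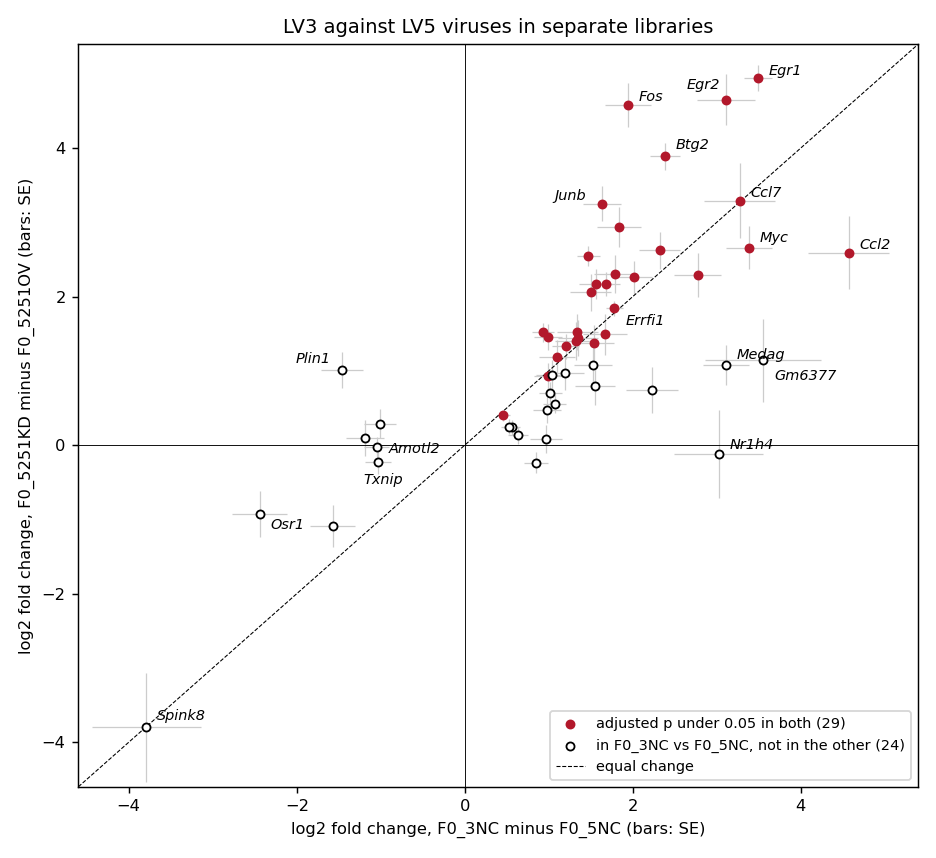
For 53 of the called genes, the log2 fold change between the controls (F0_3NC minus F0_5NC) is plotted against that between the treated groups (F0_5251KD minus F0_5251OV), with SE bars and a dashed line of equal change. Most points above 0 on one axis are above 0 on the other. Fos, Egr1, Egr2, Btg2 and Junb lie above the line, Medag and Ccl2 below it, and Nr1h4 and Plin1 off the diagonal.

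The other direction was counted too. Of the 48 genes called between F0_5251KD and F0_5251OV, 19 were not called between the controls. Among them were the early factors Ier2 (2.58 beside 0.85 between the controls), Fosb (1.86 beside 1.31), Klf6 (1.44 beside 0.48), Atf3 (3.01 beside 2.23), Nr4a2 (2.42 beside 1.13) and Jun (1.11 beside 0.29). The transcription factors Cebpb, Cebpd (1.34 beside 0.89) and Atf4 (0.43 beside 0.30), which are in none of the early response lists, were also called. The others included Rhob, Cyr61 (2.64 beside 0.30), Tagln, Zfp36l1 (0.71 beside 0.04), Nuak2, Pdxk, Pim3 and Mapkapk2, all higher, and Gm40498 (-1.71 beside 0.25), the only lower gene. These names were taken from the values and not from the rule for named genes.

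The promoters of the called genes were searched for short motifs on both strands. The RefSeq windows ran from 250 bases before to 50 bases after the transcription start (GRCm38.p6). The higher genes share a direction because they were selected for it. Windows were found for 31 of the 45 higher genes and for 12893 of the tested genes. The full cAMP response element TGACGTCA was in a window of 4 of the 31 genes (12.9%), Errfi1, Btg2, Dusp1 and Maff, against 3.16% of all genes. Its core TGACG, which the full element contains, was in 12 (38.7%) against 31.1%. The CArG box, the motif of serum response factor, was in 2 (6.45%, Egr2 and Zfp36) against 1.59%. The AP-1 site TGACTCA was in 3 (9.68%) against 4.79%, the NF-κB site in 4 (12.9%) against 8.03%, the Egr site GCGTGGGCG in 3 (9.68%, Ifrd1, Maff and Frmd6) against 1.22%, and the sterol regulatory element in 0 of 31 against 1.38%. A match describes the letters of a window and shows no binding.

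Windows of 4 of these genes are printed 5′ to 3′ on the strand of the gene, to show where the motif stands. Capitals mark the cAMP response element in Errfi1 and Btg2 and the CArG box in Zfp36 and Egr2. Where a gene had several windows, the one with the most sites of the motif was printed. The printed windows of Errfi1 and Egr2 lie inside the gene coordinates given above, so their starts are not the first base of the gene. Errfi1 (chr4:150854820-150855119, plus strand) has its element 51 bases before the start, Btg2 (chr1:134079106-134079405, minus strand) 166 bases before, Zfp36 (chr7:28379179-28379478, minus strand) 58 bases before and Egr2 (chr10:67537316-67537615, plus strand) 72 bases before, counted to the first base of the motif.
Errfi1: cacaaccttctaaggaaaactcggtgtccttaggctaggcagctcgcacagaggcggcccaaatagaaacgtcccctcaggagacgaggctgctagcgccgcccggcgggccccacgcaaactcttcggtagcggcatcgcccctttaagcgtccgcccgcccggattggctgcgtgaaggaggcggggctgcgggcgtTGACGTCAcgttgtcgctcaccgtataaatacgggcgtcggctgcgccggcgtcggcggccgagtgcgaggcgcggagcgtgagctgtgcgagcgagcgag
Btg2: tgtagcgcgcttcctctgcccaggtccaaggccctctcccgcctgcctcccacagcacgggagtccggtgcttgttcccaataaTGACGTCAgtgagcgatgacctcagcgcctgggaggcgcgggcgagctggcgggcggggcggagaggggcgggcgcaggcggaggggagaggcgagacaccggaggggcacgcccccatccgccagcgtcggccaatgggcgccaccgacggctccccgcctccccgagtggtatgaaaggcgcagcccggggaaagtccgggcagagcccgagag
Zfp36: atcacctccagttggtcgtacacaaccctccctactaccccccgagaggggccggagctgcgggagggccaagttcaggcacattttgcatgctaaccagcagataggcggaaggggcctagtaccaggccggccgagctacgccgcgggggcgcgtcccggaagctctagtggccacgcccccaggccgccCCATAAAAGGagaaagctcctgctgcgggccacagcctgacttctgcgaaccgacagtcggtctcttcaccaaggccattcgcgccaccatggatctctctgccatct
Egr2: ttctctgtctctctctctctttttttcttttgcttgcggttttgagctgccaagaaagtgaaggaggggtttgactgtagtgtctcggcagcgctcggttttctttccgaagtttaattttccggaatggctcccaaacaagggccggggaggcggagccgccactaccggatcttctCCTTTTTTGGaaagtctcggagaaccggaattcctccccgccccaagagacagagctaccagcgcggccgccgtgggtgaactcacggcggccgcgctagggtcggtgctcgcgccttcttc

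Errfi1 and Btg2, with the cAMP response element, had log2 fold changes of 1.78 and 2.38 between the controls and 1.84 and 3.89 between the treated groups. Zfp36 and Egr2, with the CArG box, had 1.47 and 3.11 between the controls and 2.55 and 4.65 between the treated groups. Egr2 has several annotated starts, and some of its other windows held a different CArG box. That box reads CCATATATGG, against CCTTTTTTGG in the printed window.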

How the data were processed

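Testis RNA of 12 libraries in 4 groups of 3 was used, grouped by the labels. Per the study's methods, oligo(dT)-selected RNA was sequenced on an Illumina HiSeq and aligned to reference genes with SOAPaligner. The labels give mm10, and no step that marks strand is named, so overlapping and antisense genes cannot be told apart. The authors deposited, for each of 20718 genes, 1 estimated count and 1 FPKM value in each library (the methods call the latter RPKM). Of the counts 12.0% were not whole, and genes that share reads with near-identical copies are therefore uncertain. A further 18 columns match no sample and were not used.

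The rounded counts went into edgeR 4.0.16, run in R 4.3.3 (filterByExpr, TMM, quasi-likelihood F test, two-sided, Benjamini-Hochberg adjustment, threshold 0.05) in 1 fit of 12 libraries and 4 groups with 8 residual degrees of freedom. The study's methods name DEGseq with a random sampling model (MARS). The members and gene lists were chosen with earlier results of these data known. Every gene called between the controls was to be named, with values per library for the 16 higher and 8 lower genes of smallest p whose mean over the control libraries was 1 CPM or more, and up to 4 members of each list with the largest changes. Some genes that fall under these rules are not reported here. Other genes were named after their values were seen.

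Replicate numbers did not pair the libraries. Alternatives tried were upper-quartile scaling, DESeq2 1.42.0, other filters, limma 3.58.1 on log2(FPKM + 1) and log2(FPKM + 0.1), the compared groups alone, a replicate block, each library left out, a stricter threshold, and a random sampling test on counts pooled over replicates at that threshold. When a library was left out the filter was applied anew, so the tested members of a list could change. Upper-quartile scaling of the lists, and the alternatives for the cholesterol and clotting lists, were chosen after seeing the data. On simulated counts of F0_3NC vs F0_5NC (16174 genes) the edgeR test recovered 66 of the 100 genes given a 2-fold change and 96 of the 100 given a 4-fold change, and made 10 false calls. On the same simulated counts DESeq2 recovered 164 of the changed genes and made 22 false calls, so its longer lists come with more false calls. Coordinates and promoter windows are from RefSeq (GRCm38.p6), matched by gene ID for 20564 genes. Estimated counts carry counting error beyond which the 3 libraries per group set the precision.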

Additional observations from a re-analysis of the deposited data

How the results depend on the processing

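For F0_3NC vs F0_5NC, 24 of the 54 called genes were called under all 14 alternatives. The call was lost by 28 without at least 1 library, 7 of them without any one of the 6. Nr4a3 and Emp1 lost it only under an alternative that kept all 6 control libraries. For Nr4a3 this was limma on log2(FPKM + 0.1), and for Emp1 the fit of the compared groups alone, which left out the treated libraries. None of the 54 changed sign. Upper-quartile scaling (45 genes), no filter (47), the filter of 1 CPM (46), limma (42 and 37), the compared groups alone (47) and the replicate block (50) stayed within 1.5 times of 54. Of the 54, 47 were called with the block, 37 and 36 with limma and 34 with the compared groups alone. DESeq2 called 138, the stricter threshold (adjusted p at most 0.001 and an absolute log2 fold change of at least 1) 12, all higher, and a pooled-count test, which changed the test and used that threshold as well, 307 (130 higher, 177 lower). Leaving out 1 library gave 30 to 54 genes, with 35 without F0_3NC replicate 2, of which 27 to 39 were among the 54. The 54 genes without F0_5NC replicate 1 held 39 of them. The cause of these shifts was not tested, apart from the stricter threshold, which can only shorten the list.

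For F0_5251KD vs F0_5251OV (48 genes) DESeq2 called 103, the stricter threshold 16, and the pooled-count test with that threshold 231. Leaving out 1 library gave 29 (F0_5251KD replicate 1) to 43, with 31 without F0_5251OV replicate 1 and 31 without replicate 2, and the replicate block gave 40. For the difference between the comparisons (0 genes) DESeq2 called 35 and limma on log2(FPKM + 1) called 1, leaving out 1 library gave 0 to 1 (1 without F0_5NC replicate 3), and the replicate block gave 0. Deviations of same-numbered libraries had correlations between -0.03 and 0.01 across groups, so the number only names a library. The log2 fold change of Nr4a1, 0.10, was 0 after rounding and below 0 before it without F0_3NC replicate 3 (adjusted p = 0.991, edgeR), and 0.06 to 0.23 without each of the others in turn. Under upper-quartile scaling the median of all genes was -0.017 and no list median moved by more than its spread. In the simulation of F0_3NC vs F0_5NC 66 of 100 genes changed 2-fold were found, so a change of that size can be missed at this depth and with 3 libraries.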
